A study of Mus musculus with 3 samples.

Results

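Vegfa, Vegfb, Vegfc, Pgf, Angpt1, Angpt2, Nrp1, Nrp2, Hif1a and Epas1 encode growth factors of blood vessels, their co-receptors and the oxygen-sensing transcription factors above them. These 10 genes were followed in the developing mouse kidney by taking every array feature whose annotation carries only that symbol, and 11 features were found. Of these, 9 had a log2 ratio on all 3 arrays and gave 9 of the 10 genes, among 14433 named genes measured in the same way. The exception was Vegfc, whose single feature had no value on any array, so it has no ratio here.

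The samples were metanephroi, the earliest form of the permanent kidney, from embryos of 11.5 days post coitum (dpc), and kidneys of fetuses of 13.5 dpc. Both came from CD1 mice with no allele or treatment named in the labels, were microdissected, and held tissue pooled from both sexes. Each of the 3 two-channel Compugen oligonucleotide arrays carried amplified RNA of both ages, with 11.5 dpc in channel 1 and 13.5 dpc in channel 2. The labels give the dyes as red/green for arrays 1 and 2 and as green/red for array 3.

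Vessels enter the kidney rudiment while the ureteric bud branches. VEGF ligands drive endothelial cells to divide and migrate through receptor tyrosine kinases, with neuropilins as co-receptors that also bind class 3 semaphorins. Angiopoietin 1 activates the endothelial receptor Tie2 and steadies vessels, while angiopoietin 2 mostly opposes it during remodelling. HIF-1 alpha and HIF-2 alpha (the products of Hif1a and Epas1) are degraded when oxygen is plentiful, and in hypoxia they pair with ARNT and switch on genes such as Vegfa. Much of that control acts on the proteins, which the arrays did not measure.

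A positive log2 ratio is read as higher at 11.5 dpc. This direction is likely and not settled. The labels name 11.5 before 13.5 dpc and put it in channel 1, but do not say how the ratio of array 3 was turned. With array 3 as given, 130 rows reached 2-fold in a shared direction across the arrays. With array 3 turned, 42 rows did. Among the 130, Kcnj8 had log2 ratios of -2.61, -2.63 and -2.55 on arrays 1, 2 and 3. Slc2a1 had 5.36, 4.59 and 6.36. The orientation of array 3 itself was not tested. The arrays had medians of 0.011, 0.064 and -0.091 over the 19015 rows tested and standard deviations of 0.56, 0.75 and 0.93. Across rows, which are not independent replicates, array 3 had a Pearson correlation of 0.12 with array 1 and -0.12 with array 2, and arrays 1 and 2 one of 0.27. Whether each array had its own RNA extract is not stated. The p-values therefore reflect only how far these 3 arrays differ, possibly for technical reasons, and so few arrays limit the precision. A ratio gives no level, so the presence of kidney markers could not be checked. In whole rudiments, fewer cells of a type and less RNA per cell cannot be told apart.

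No member passed limma's adjusted p of 0.05 (0 of 9), and neither did any other row (0%, with a smallest adjusted p of 0.197). At an unadjusted p under 0.05 limma took 3 of the 9, against 9.24% of all rows. They were Hif1a and Pgf with positive ratios (4.17% of all rows) and Angpt2 with a negative one (5.07%). Without array 1, 2 or 3 this count was 1, 0 or 2, and it was 0 with array 3 turned. With a dye term it was 2, Hif1a and Epas1 (limma unadjusted p = 0.00598 and 0.036). Subtracting a running median by library position gave 2, Hif1a and Pgf. Hif1a, Angpt1 and Pgf were positive on every array, against 16.8% of all rows. Angpt2, Epas1 and Vegfb were negative on every array, against 18.5%. A single sign on every array was thus found for 6 of the 9, against 35.3% of all rows, while Nrp1, Nrp2 and Vegfa changed sign between arrays. No member reached a 2-fold ratio of 1 sign on all 3 arrays, nor a 1.5-fold one (0 of 9 for both), against 0.684% and 2.52% of all rows. The median of the 9 means was -0.14, beside -0.0084 for all rows, and it was 0.084 without array 3.

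**Figure D1:**
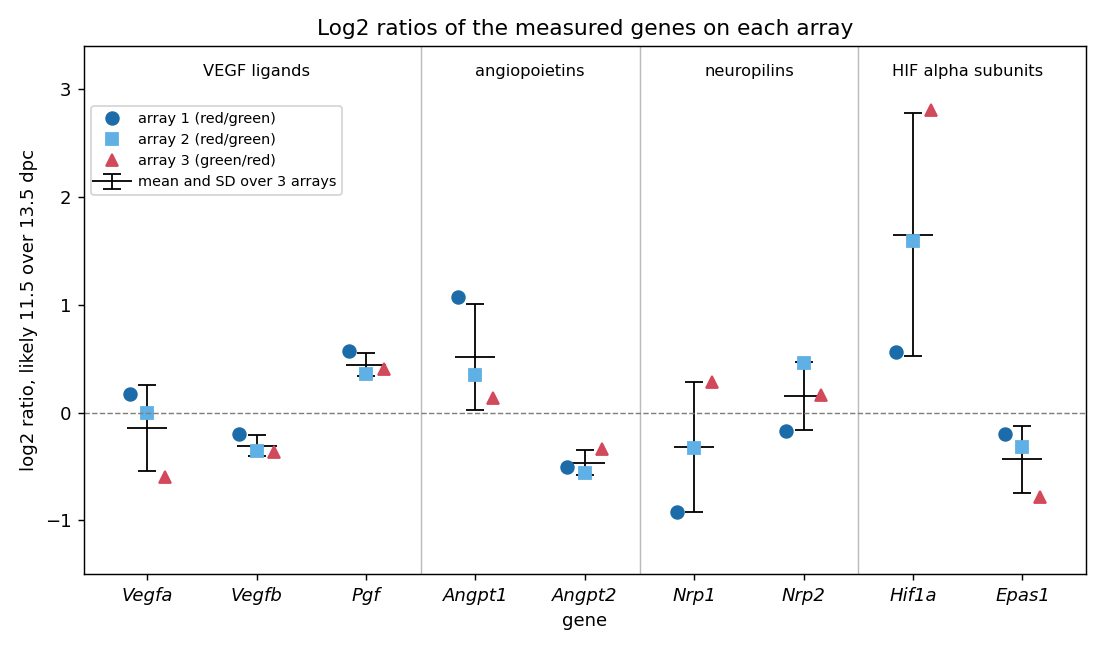
Log2 ratio (vertical axis, likely 11.5 over 13.5 dpc) of the 9 measured genes (horizontal axis, grouped by role); symbols are the 3 arrays, horizontal bars the mean and vertical bars the SD over arrays. Hif1a lies between 0.56 and 2.81, above the other genes on arrays 2 and 3, while Pgf and Angpt2 stay close together on opposite sides of 0.

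Hif1a, the HIF-1 alpha subunit, had the highest mean ratio of the group, though on array 1 it lay below Angpt1 and Pgf. Its log2 ratio was 0.56 on array 1, 1.59 on array 2 and 2.81 on array 3. All were positive, but the highest lay 2.25 log2 units above the lowest. The mean was 1.65 ± 1.13 (SD, n = 3 arrays), a 3.14-fold ratio with a 95% interval of 0.33 to 2.97 on the log2 scale (limma adjusted p = 0.516). Without array 1, 2 or 3 the mean was 2.20, 1.68 or 1.07. Set against all rows of the same array, Hif1a stood at the 87.3rd percentile on array 1, the 98.9th on array 2 and the 97.5th on array 3. Array 3, the array of the other dye order, thus gave the largest ratio but not the highest place. With the sign of array 3 turned the mean was -0.22.

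Epas1, the HIF-2 alpha subunit that is abundant in endothelium, went the other way. Its log2 ratio was -0.20, -0.32 and -0.79 on arrays 1, 2 and 3. All were below 0, array 3 being the lowest. The mean was -0.43 ± 0.31 (SD, n = 3), 1.35-fold lower at 11.5 dpc, with an interval of -0.96 to 0.093 (limma adjusted p = 0.567). Without array 3 it was -0.26, and with array 3 turned 0.090.

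Hif1a exceeded Epas1 on every array, by 0.75, 1.91 and 3.59 log2 units. The mean difference was 2.08 ± 1.43 (SD, n = 3). An exact two-sided sign-flip test over the 3 arrays gave p = 0.25, the smallest it can give, and 0.375 after Benjamini-Hochberg adjustment over the 3 pairs compared. The difference was 1.33 without array 3 and became -0.31 with array 3 turned. A further comparison, Vegfa with Vegfc, could not be made because Vegfc has no value.

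Angpt1 and Angpt2, the ligands of Tie2, lay on opposite sides of 0. Angpt1 had log2 ratios of 1.07, 0.34 and 0.13 on arrays 1, 2 and 3. It was positive throughout, with array 1 well above the others. The mean was 0.52 ± 0.49 (SD, n = 3), 1.43-fold, with an interval of -0.16 to 1.20 (limma adjusted p = 0.581). Without array 1 it was 0.24. This rests on the feature with accession AK004193. A second Angpt1 feature, NM_009640, had no value on array 1, -0.99 on array 2 and 0.45 on array 3. On array 2 the features of this gene therefore had opposite signs, and the positive ratio of Angpt1 on that array is carried by the retained feature alone.

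Angpt2, which loosens vessels for remodelling, had log2 ratios of -0.50, -0.56 and -0.34. These 3 values lay within 0.22 log2 units of each other, all below 0. The mean was -0.47 ± 0.12 (SD, n = 3), 1.38-fold lower at 11.5 dpc, with an interval of -0.88 to -0.051 (limma unadjusted p = 0.0356, adjusted p = 0.534). Its places were the 15.2nd, 12.4th and 30.3rd percentiles.

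The difference of Angpt1 over Angpt2 was 1.58, 0.91 and 0.47 on arrays 1, 2 and 3, with a mean of 0.98 ± 0.56 (SD, n = 3). Every array gave the same order, and so the exact two-sided sign-flip p was 0.25, the smallest possible, and 0.375 adjusted over 3 pairs. The mean difference stayed positive with array 3 turned (0.67) and without array 1 (0.69). It uses the retained Angpt1 feature. The opposite sign of the second feature on array 2 limits this comparison.

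**Figure D2:**
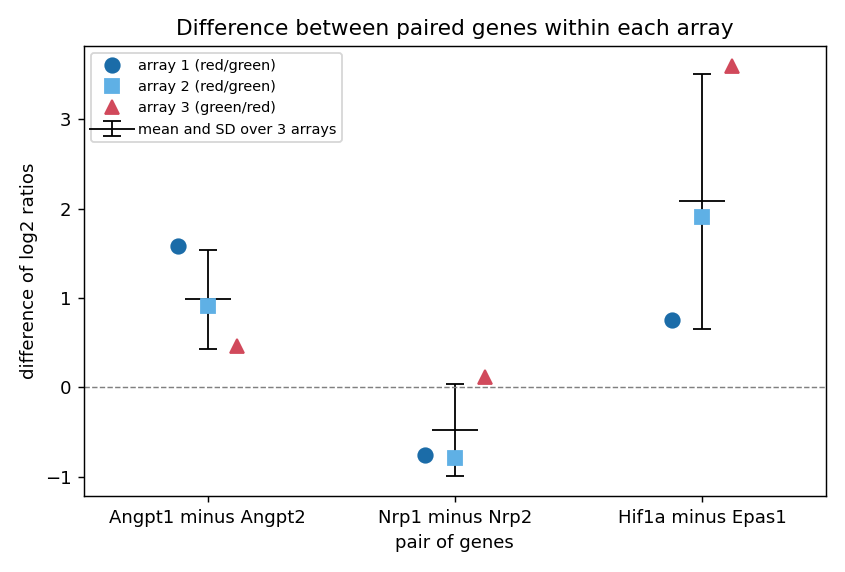
Difference between the log2 ratios of 2 genes within each array (vertical axis, log2 units) for the 3 pairs (horizontal axis); symbols are arrays, horizontal bars the mean and vertical bars the SD. All 3 arrays lie above 0 for Angpt1 minus Angpt2 and for Hif1a minus Epas1, while Nrp1 minus Nrp2 has array 3 at 0.12 and the others below 0.

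Among the VEGF ligands, Pgf and Vegfb had the smallest SD over arrays and opposite signs. Pgf encodes placental growth factor, which binds VEGF receptor 1. Its log2 ratios were 0.57, 0.36 and 0.40, all positive and within 0.21 log2 units. The mean was 0.44 ± 0.11 (SD, n = 3), 1.36-fold higher at 11.5 dpc, with an interval of 0.031 to 0.86 (limma unadjusted p = 0.0406, adjusted p = 0.539). Vegfb, another ligand of VEGF receptor 1, had -0.20, -0.36 and -0.37. All lay below 0, with a mean of -0.31 ± 0.10 (SD, n = 3), 1.24-fold lower, and an interval of -0.72 to 0.10 that includes 0 (limma adjusted p = 0.581). After a running median along the oligonucleotide library was subtracted, the Vegfb mean was -0.13.

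Vegfa, the main ligand for blood vessel growth and in the later kidney a product of podocytes, had no common sign. Its log2 ratios were 0.17, -0.0029 and -0.60 on arrays 1, 2 and 3. Array 1 was above 0, array 2 at 0 and array 3 below it. The mean was -0.14 ± 0.40 (SD, n = 3), with an interval of -0.74 to 0.46 (limma adjusted p = 0.831). It was 0.084 without array 3 and 0.25 with array 3 turned. The interval of -0.74 to 0.46 reaches to either side of 0, so no direction of change can be given for Vegfa. The podocyte markers, 9 measured, had a median of -0.28. Of these, 3 were negative (18.5% of all rows) and 0 positive (16.8%) on all arrays. With array 3 turned the podocyte median was 0.029.

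The bases just before the start sites of Hif1a, Pgf, Vegfb and Vegfa are shown, the first 3 because their ratios kept 1 sign and the last as the best known HIF target of the group. RefSeq promoter sequences on GRCm38.p6 were found for 7 of the 10 genes, with no entry for Angpt1, Angpt2 and Epas1. Each window is the 250 bases before the start site, the most upstream one where the table has several (Vegfa and Pgf have 2 each), printed 5′ to 3′ on the gene's strand. Capitals mark the HIF core motifs ACGTG and GCGTG on either strand, so that CACGT and CACGC are marked too. The windows are Hif1a (chr12:73907617-73907866, plus strand), Pgf (chr12:85177314-85177563, minus strand), Vegfb (chr19:6987652-6987901, minus strand) and Vegfa (chr17:46032378-46032627, minus strand).
Hif1a: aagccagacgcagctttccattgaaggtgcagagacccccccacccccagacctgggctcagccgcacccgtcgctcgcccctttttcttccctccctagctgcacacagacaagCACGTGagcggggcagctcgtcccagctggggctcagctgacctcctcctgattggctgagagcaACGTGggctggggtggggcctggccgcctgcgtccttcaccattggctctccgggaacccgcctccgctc
Pgf: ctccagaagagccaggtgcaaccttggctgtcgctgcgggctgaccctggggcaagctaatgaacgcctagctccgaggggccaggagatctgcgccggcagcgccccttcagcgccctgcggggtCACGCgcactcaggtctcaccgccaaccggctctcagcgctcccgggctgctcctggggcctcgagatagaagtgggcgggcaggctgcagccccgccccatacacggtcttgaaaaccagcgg
Vegfb: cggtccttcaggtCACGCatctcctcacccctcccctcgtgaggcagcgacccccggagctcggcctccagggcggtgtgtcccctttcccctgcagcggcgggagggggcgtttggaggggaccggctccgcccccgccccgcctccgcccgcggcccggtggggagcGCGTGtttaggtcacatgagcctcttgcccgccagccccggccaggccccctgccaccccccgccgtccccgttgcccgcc
Vegfa: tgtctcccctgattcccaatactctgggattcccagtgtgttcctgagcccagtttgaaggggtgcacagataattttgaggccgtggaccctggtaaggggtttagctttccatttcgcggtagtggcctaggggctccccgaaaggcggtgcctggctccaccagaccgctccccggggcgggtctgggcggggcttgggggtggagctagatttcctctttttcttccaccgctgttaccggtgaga

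Hif1a held 3 matches to ACGTG, a pair of which overlap as CACGTG, read on both strands. Pgf held 1 match and Vegfb 2 matches to GCGTG, and the Vegfa window held none. That window covers only the 250 bases before the most upstream Vegfa start site, and bases outside it were not searched. Nrp1 had 1 and Nrp2 had 2 matches to GCGTG, and Vegfc had none. Windows of the same length hold ACGTG in 16.5%, GCGTG in 28.3% and either in 38.6% of 27025 genes. These letters occurred in windows of genes with positive (Hif1a, Pgf) and negative ratios (Vegfb). A match is only a run of letters, and says nothing about binding.

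Neither neuropilin kept 1 sign over the arrays. Nrp1, co-receptor for VEGF-A and semaphorin 3A, had log2 ratios of -0.92, -0.33 and 0.29 on arrays 1, 2 and 3. It was low on array 1 (the 4.80th percentile) and high on array 3 (the 79.0th). The mean was -0.32 ± 0.60 (SD, n = 3), with an interval of -1.11 to 0.46 (limma adjusted p = 0.716), and ran from -0.63 to -0.021 when 1 array was left out. Nrp2, the neuropilin of veins and lymphatics that binds VEGF-C and semaphorin 3F, had -0.17, 0.46 and 0.17. Array 1 was below 0 and the others above it. The mean was 0.15 ± 0.32 (SD, n = 3), with an interval of -0.38 to 0.68 (limma adjusted p = 0.792), and it was -0.0018 without array 2. Nrp1 lay below Nrp2 by 0.75 and 0.79 log2 units on arrays 1 and 2 and above it by 0.12 on array 3. The exact two-sided sign-flip test gave p = 0.5, also 0.5 adjusted over the 3 pairs, with a mean difference of -0.47 ± 0.52 (SD, n = 3).

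In order of mean ratio the genes ran Hif1a, Angpt1, Pgf, Nrp2, Vegfa, Vegfb, Nrp1, Epas1 and Angpt2. Only 1 of the 8 gaps between neighbours exceeded the larger SD of the genes on either side. That was the gap between Hif1a and Angpt1, which barely exceeded the SD of Hif1a (both 1.13 when rounded). Of the 36 pairs of genes, 19 had the same order on every array. The SD over arrays was lowest for Vegfb, Pgf and Angpt2, which stood at the 7.52nd, 9.46th and 10.4th percentiles of SD among all rows. Hif1a stood at the 90.8th and Nrp1 at the 73.8th. Array 3 lay above the mean of arrays 1 and 2 by 1.73 for Hif1a and 0.91 for Nrp1, and differed from it by -0.68 for Vegfa, -0.58 for Angpt1 and -0.53 for Epas1. Array and dye order cannot be told apart for array 3.

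**Figure D3:**
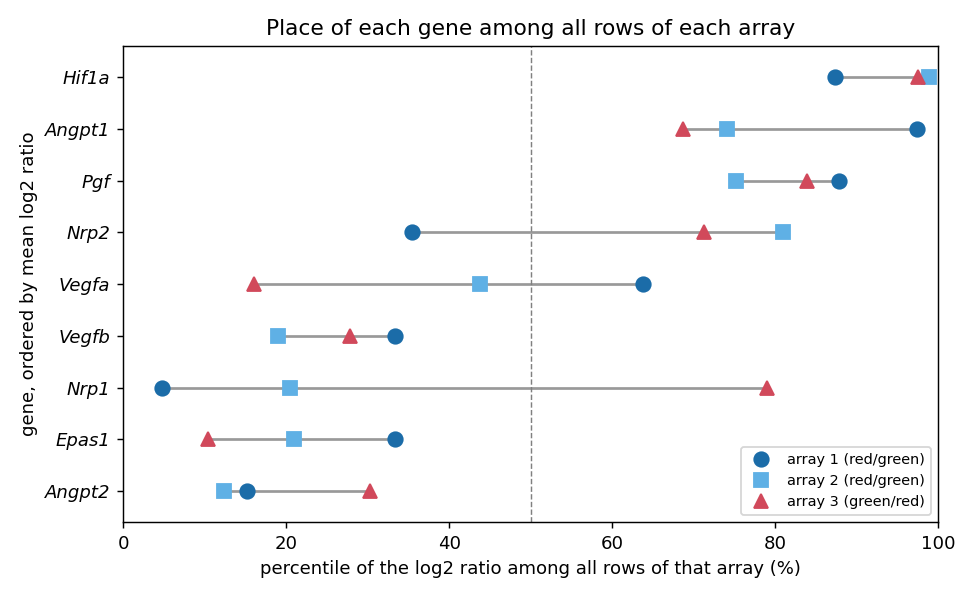
Percentile of each gene's log2 ratio among all rows of the same array (horizontal axis, %), with genes on the vertical axis in order of mean ratio; symbols are arrays and grey lines span them. Nrp1 spans the widest range, from the 4.80th to the 79.0th percentile, while Hif1a, Angpt1 and Pgf stay right of the middle and Angpt2, Epas1 and Vegfb left of it.

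Among the receptors of these ligands, Tek, Flt1 and Tie1 had negative ratios on every array, while Kdr and Flt4 changed sign. They were read as a list of 6 measured genes, namely 3 VEGF receptors, both Tie receptors and the ligand Vegfd. Of these 6, 4 (Vegfd among them) were negative (18.5% of all rows) and 0 positive (16.8%) on every array. Of the 6, 0 passed the adjusted threshold. Their median was -0.39. Tek, which encodes the angiopoietin receptor Tie2, had -1.01, -0.84 and -0.20 on arrays 1, 2 and 3. Its mean of -0.68 ± 0.43 (SD, n = 3), 1.61-fold lower at 11.5 dpc, was the lowest of the 6 (limma unadjusted p = 0.0382, adjusted p = 0.539). Vegfd, a ligand of VEGF receptor 3, had -0.44 ± 0.31. Flt1, encoding VEGF receptor 1, to which Pgf and Vegfb bind, had -0.40 ± 0.30, and Tie1, the partner of Tie2, had -0.39 ± 0.30. Kdr, encoding VEGF receptor 2, the main receptor of Vegfa, had 0.58, -0.079 and -0.31, with a mean of 0.063 ± 0.46. Flt4, encoding VEGF receptor 3 of lymphatic vessels, had -0.67, 0.54 and -0.029, with a mean of -0.055 ± 0.61. Kdr and Flt4, like Vegfa, had no common sign.

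Endothelial markers had more negative than positive ratios. Of 21 measured, 12 were negative on every array (18.5% of all rows) and 2 positive (16.8%). These 2 were Erg and Ecscr, named after their values were seen. The list had a median of -0.38 and medians of -0.25, -0.32 and -0.44 on arrays 1, 2 and 3. Flt1, Kdr, Tek and Tie1 stand in this list too. The adhesion gene Icam2 had -0.83 ± 0.10 and the tight junction gene Cldn5 -0.89 ± 0.45 (SD, n = 3), with limma adjusted p of 0.402 and 0.508. With array 3 turned the endothelial median was -0.075, that of the receptors with Vegfd -0.24 and that of the semaphorins and plexins described next -0.15. The part of endothelial cell number in the ratios of Angpt2, Epas1 and Tek was not tested. Lymphatic markers, 5 measured with Nrp2 and Flt4 among them, had a median of -0.055. The podoplanin gene Pdpn had -0.46 ± 0.29 and the lymphatic transcription factor gene Prox1 -0.31 ± 0.25, which was -0.18 without array 3. The hyaluronan receptor gene Lyve1, named after its values were seen, had 0.037, -1.24 and 4.59, with a mean of 1.13. Mural cell markers come from the cells that wrap vessels and are a source of Angpt1. These markers had a median of -0.13 over 9, with 3 positive (16.8% of all rows) and 3 negative (18.5%) on all arrays. They ran from -2.59 for the channel gene Kcnj8 to 1.80 for the growth factor receptor gene Pdgfrb (named after its value was seen; 0.39, 0.49 and 4.53 on arrays 1, 2 and 3, and 0.44 without array 3), with the smooth muscle gene Tagln at 0.56 ± 0.28.

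Class 3 semaphorins and plexins, the other ligands and partners of the neuropilins, had a median of -0.37 over 10 measured genes. Of these, 5 were negative on every array (18.5% of all rows) and 0 positive (16.8%). None passed the adjusted threshold (0 of 10), and limma took 3 as lower at an unadjusted p under 0.05 (5.07% of all rows). Sema3c, a secreted guidance cue, had -0.64 ± 0.14 (SD, n = 3), on each array between -0.80 and -0.54. Sema3d had -0.71 ± 0.45, and Plxnd1, the endothelial semaphorin receptor, -0.69 ± 0.42. Plxna1, a signalling partner of neuropilins, had -0.52 ± 0.31 as the average of 2 features that differed, AK011193 with a mean of -1.03 and NM_008881 with -0.011, so that value rests on the first. Sema3c is also an average, of feature means of -0.85 and -0.42. Their adjusted p in limma ran from 0.488 to 0.539. The rest of the list was named after its values were seen. Sema3a had -0.26, -0.35 and 0.46 on arrays 1, 2 and 3, and Sema3f 0.052, 0.74 and -0.54. Sema3e and Plxna2 had means of 0.43 and 0.14 and changed sign between arrays. Sema3b and Plxna3 had means of -0.27 and -0.48.

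Partners and regulators of the HIF proteins had no common direction. Of 18 measured genes, 5 were positive (16.8% of all rows) and 1 negative (18.5%) on every array. The median was 0.083 and 0 passed. Rbx1, counted among the 5 and named after its values were seen, had 3e-07 on array 2, in effect 0. Hif3a, encoding the third HIF alpha subunit, had 0.78, 0.63 and 0.31, with a mean of 0.57 ± 0.24 (SD, n = 3; limma adjusted p = 0.524). Eloc and Elob, encoding the elongins of the VHL ubiquitin ligase that marks HIF alpha for destruction, had 0.41 ± 0.08 and 0.30 ± 0.15. Hif1an, encoding the asparagine hydroxylase that blocks HIF transactivation, was the 1 negative on every array, with -0.45 ± 0.16. Thus Hif1a and Hif3a had positive ratios on every array and Epas1 negative ones.

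HIF target genes, taken as a list of glycolytic, mitophagy, matrix and transport genes, were spread on both sides of 0. Of 36 measured genes 8 were positive (16.8% of all rows) and 10 negative (18.5%) on every array. The median was -0.034 and 0 passed the adjusted threshold. The list medians on arrays 1, 2 and 3 were -0.048, -0.028 and -0.050, while Hif1a on the same arrays ran from 0.56 to 2.81. At an unadjusted p under 0.05 limma took 4 as higher (4.17% of all rows) and 2 as lower (5.07%) at 11.5 dpc. The glucose transporter gene Slc2a1 had 5.44 ± 0.89 and was the 1 gene of this list at least 2-fold on every array. The mitophagy genes Bnip3 and Bnip3l had 0.68 ± 0.26 and 0.59 ± 0.23, and the phosphofructokinase gene Pfkp had -0.48 ± 0.16 (SD, n = 3). The others in those counts, named after their values were seen, were the glycolytic regulator gene Pfkfb3 (0.45) and the protein disulfide isomerase gene P4hb (-0.49). Adm, Ldha and Pgk1 were also named after their values were seen. Adm had the lowest mean of the list, -0.96, with -1.88, -0.71 and -0.28 on arrays 1, 2 and 3. The means of Ldha and Pgk1 were 0.058 and -0.045, and both genes changed sign between arrays. Bnip3l also clears mitochondria from maturing red cells. Erythroid markers had a median of 1.09 over 12, with 9 positive (16.8% of all rows) and 0 negative (18.5%) on every array. Their medians on arrays 1, 2 and 3 were 0.57, 1.32 and 1.02, and their part in these ratios was not tested. With array 3 turned the erythroid median was 0.34.

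**Figure D4:**
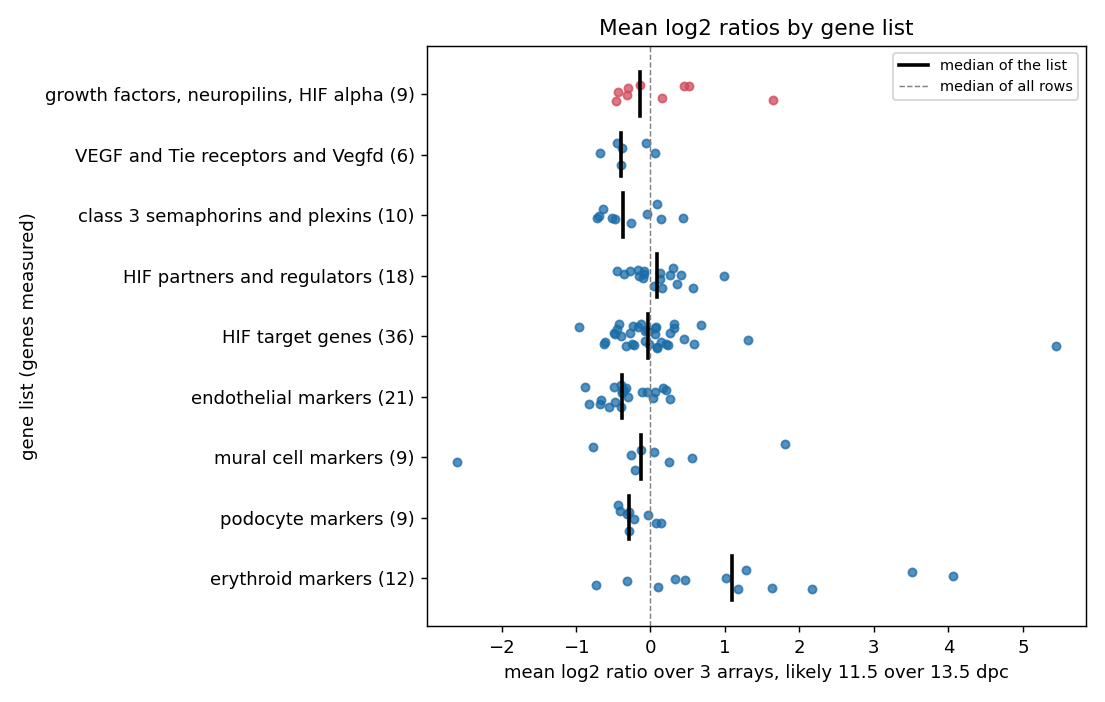
Mean log2 ratio over 3 arrays (horizontal axis, likely 11.5 over 13.5 dpc) of each measured gene, by gene list (vertical axis, number measured in brackets); black bars are list medians and the dashed line the median of all rows. The HIF targets centre at -0.034 with Slc2a1 far to the right at 5.44, and the receptors with Vegfd (-0.39) and endothelial markers (-0.38) centre left of 0.

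The genes with ratios nearest to those of Hif1a over the 3 arrays, by Euclidean distance in log2 units, were Tars (0.34), D19Ertd652e (0.56) and Psg18 (0.57). The ratio of D19Ertd652e is an average of 2 features that differed, with means of 2.80 and 0.84. Tars, encoding a threonyl-tRNA synthetase, had 0.70, 1.48 and 3.09 on arrays 1, 2 and 3. For Angpt2 the nearest genes were Tmed7 (0.072), Pygl (0.072) and 1700112J16Rik (0.078), all between -0.56 and -0.29 on every array. These distances rest on 3 arrays and are a description only.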

How the data were processed

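Each of 3 arrays carried both ages and is 1 replicate of the comparison. Per the labels, ImaGene 5.5 quantified the images. They carry 2 accounts of the normalisation (print-tip loess with a step between arrays, and a Lowess curve through 20% of the data). Which account applies to the deposited log2 ratios is not stated there. Their base was found from the values: 2 raised to each gave a whole multiple of 0.001, within 0.02 of that step, for 100%. Without spot intensities, background and dim spots could not be judged.

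Of 22702 features, 883 controls or blanks were left out. Features lacking a value on any array were dropped and those of 1 symbol averaged, giving 19015 rows (14433 named). Symbols came from the platform annotation, checked by Entrez identifier against the GRCm38.p6 gene table (15970 matched, 0 renamed).

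An intercept-only model in limma 3.58.1 (R 4.3.3; lmFit, eBayes, two-sided) tested each mean against 0, with Benjamini-Hochberg adjustment over all rows and a threshold of 0.05, after the procedure had been tested on simulated data. Intervals are limma's 95% intervals. Differences between pairs of genes were tested with exact sign flips over arrays. Alternatives left out each array, turned array 3, added a dye term, changed the scaling between arrays, subtracted a running median over 401 features along the library, or took single features.

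The genes, lists, pairs, tests and naming rule were chosen with earlier results of these data known. Named were all members, every gene of lists with up to 7 measured, the 4 with the largest limma statistic in longer pathway lists, 2 for each of 9 marker lists, and the 3 nearest patterns to the members with the highest and lowest statistic.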

Additional observations from a re-analysis of the deposited data

How the results depend on the processing

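Limma passed 0 rows and 0 members at an adjusted p of 0.05 under each alternative, with 736 to 2669 rows at an unadjusted p under 0.05. The sign of each of the 51 named genes was kept under median centring, scaling, quantile normalisation and single features, but single features took Plxna1 from -0.52 to -0.011, D19Ertd652e from 1.82 to 0.84 and Sema3c from -0.64 to -0.42. With array 3 turned, 9 reversed: Hif1a (-0.22), Epas1 (0.090), Vegfa (0.25), Cldn5 (0.040), Prox1 (0.073), Tcf21 (0.029), Tars (-0.30), D19Ertd652e (-0.41) and Psg18 (-0.23). That turn also gave a member median of 0.042, with 0 members positive and 1 negative on every array, a Hif1a over Epas1 difference of -0.31, and 42 rows at least 2-fold on every array, against 130. That count was 479 at 1.5-fold. The running median made Flt4 0.030, Vegfb -0.13, Nrp1 -0.12, Angpt2 -0.30, Tcf21 -0.18 and Kdr 0.12, and left 2 members negative on every array. The dye term made Kdr -0.030, Nrp1 -0.17 and Vegfa -0.26. Leaving out 1 array gave 266 to 341 such rows and 0 or 1 such member (Hif1a, without array 1), with 2 arrays in place of 3 to satisfy the rule. It gave member medians of -0.21 to 0.084, and means of -0.30 to 0.084 for Vegfa, -0.0018 to 0.31 for Nrp2, -0.19 to 0.25 for Kdr and -0.35 to 0.25 for Flt4. The cause was not tested. The pairs Angpt1 with Angpt2 and Nrp1 with Nrp2 kept their sign under every alternative. No paired analysis was possible because the arrays form 1 group with no second group to pair; each ratio already sets both ages against each other within an array. The number of arrays and the unknown signal over background limit these results.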

Other observations

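Markers of other cells in the rudiment were read from the same arrays, and 0 of them passed limma's adjusted threshold. Over all rows, 16.8% were positive and 18.5% negative on every array. Stromal markers, 8 measured, had a median of -0.045, with 3 positive and 4 negative on every array. The stromal transcription factor genes Foxd1 and Meis1 had 0.72 ± 0.36 and 0.73 ± 0.14 (SD, n = 3 arrays). The matrix genes Dcn and Col1a1 of the same list, named after their values were seen, had -1.28 ± 0.98 and -0.48 ± 0.19. Nephron progenitor and early nephron markers had a median of -0.24 over 11, with 7 negative and 1 positive on every array. Among them the early nephron gene Pax8 had -0.79 ± 0.13 and the progenitor gene Cited1 -0.85 ± 0.37. Osr1 and Six2 of the same list were named after their values were seen. Osr1, the 1 positive on every array, had 0.42, and Six2 had -0.62, -0.14 and 0.26 on arrays 1, 2 and 3. Ureteric bud markers had a median of -0.055 over 10, with 2 positive and 3 negative on every array. Krt8 had -0.63 ± 0.28 and Emx2 -0.48 ± 0.25, and the 2 positive ones, named after their values were seen, were Ret (0.30) and Calb1 (0.19). Macrophage markers had a median of 0.089 over 10. The chemokine receptor gene Cx3cr1 had -0.086, -3.10 and -2.14 on arrays 1, 2 and 3, and Aif1 had 0.28 ± 0.17. The erythroid genes Ermap and Klf1 had 3.51 ± 0.25 and 2.18 ± 0.22. Gata1 and Slc4a1 of the same list, named after their values were seen, had means of -0.73 and -0.31 and changed sign between arrays. Among podocyte markers Wt1 had -0.31 ± 0.20 and Tcf21, which stands in the stromal list too, -0.29 ± 0.17. The rest of the podocyte list was named after its values were seen. On arrays 1, 2 and 3 Nphs1 had -0.091, 0.18 and -0.74, and Podxl 0.30, -0.43 and 0.044. Synpo had 0.13, -0.65 and -0.71 on the same arrays. Ptpro and Lmx1b had means of -0.43 and -0.28, and Foxc2 and Cdkn1c of 0.14 and 0.079.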
